A study of Mus musculus with 3 samples.

Results

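The 8 genes Sis, Mgam, Lct, Treh, Slc5a1, Slc2a2, Slc2a5 and Khk encode the brush-border disaccharidases, the hexose transporters and the fructose kinase of the small intestine. ESRRA peaks were assigned to them by distance: a peak belonged to a gene when its midpoint lay within 30 kb of a transcript start site of that gene. Of the 1639 peaks in the list, 32 (1.95%) met this rule, at 6 of the 8 genes. Treh and Slc2a5 had none and are described as negatives. The genes were chosen by their function and by the peaks near them in this same list, so the numbers of peaks near the genes are a description and were not tested.

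The data came from chromatin immunoprecipitation and sequencing (ChIP-seq) of ESRRA, the estrogen-related receptor α, in adult villus cells from the duodenal epithelium of wild-type C57BL/6 mice fed regular chow. There were 2 ESRRA ChIP libraries and 1 input library, all of the same genotype, so no group of mice was set against another. Villi had been separated from crypts on a filter, and their chromatin was fixed with disuccinimidyl glutarate and then with formaldehyde. Both ChIP libraries were merged by the authors before peaks were called, which left 1 list without replicate error, and neither the sequencing depth nor the height of a peak was analysed here.

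Dietary sugars reach the villus as disaccharides and short glucose chains, which enzymes anchored in the brush border split into glucose, galactose and fructose. Glucose and galactose enter the enterocyte with sodium through SGLT1, fructose enters through GLUT5, and hexoses leave towards the blood through GLUT2, while ketohexokinase traps fructose inside the cell as its phosphate. ESRRA is an orphan nuclear receptor that is best known as a regulator of mitochondrial genes, and receptors of its family bind the extended half-site TCAAGGTCA, of which AAGGTCA is the core.

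The sequences that carry this core in the assigned peaks are shown first, because the positions and the sequence content of the peaks are what could be measured here. AAGGTCA occurred 11 times in 9 of the 32 peaks, with at least 1 occurrence at each of the 6 genes that had a peak. The lines below give 9 of these 11 occurrences in build mm9, read 5′ to 3′ on the strand that carries AAGGTCA, with AAGGTCA in capitals. All 3 occurrences of the intron 2 peak of Mgam are included because no other assigned peak held more than 1.
Sis, intron 4, chr3:72764153-72764193, + strand: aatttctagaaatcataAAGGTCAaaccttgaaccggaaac
Mgam, intron 2, chr6:40594129-40594169, - strand: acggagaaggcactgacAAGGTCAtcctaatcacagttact
Mgam, intron 2, chr6:40594320-40594360, - strand: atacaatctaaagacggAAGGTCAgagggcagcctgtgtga
Mgam, intron 2, chr6:40594458-40594498, - strand: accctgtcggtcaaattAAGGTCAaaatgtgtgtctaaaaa
Lct, intron 1, chr1:130221017-130221057, - strand: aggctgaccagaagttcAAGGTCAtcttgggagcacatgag
Slc5a1, intron 2, chr5:33472105-33472145, - strand: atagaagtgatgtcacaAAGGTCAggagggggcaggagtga
Slc2a2, intron 1, chr3:28597351-28597391, - strand: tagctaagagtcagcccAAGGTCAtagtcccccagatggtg
Khk, upstream of the gene, chr5:31223491-31223519, - strand: caatgaggccaAAGGTCAagaggagatgc
Khk, beyond the gene, chr5:31246832-31246872, - strand: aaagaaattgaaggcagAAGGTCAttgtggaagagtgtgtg

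Only the Lct occurrence was preceded by TC and so completed TCAAGGTCA, 1 of 11. Among 985 occurrences in the other single-copy peaks of the list, TC came before the core in 318 (32.3%). The most frequent pair of bases before the core, named after the counts were seen, was CA. It came before 3 of the 11 (in Mgam, in Slc5a1 and in the upstream Khk peak), against 6.5% of the 985. TT came before 2 of the 11, against 2.23%, and every other pair before at most 1. A single-copy peak is one whose 24-base words had a median of at most 10 copies in the genome.

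The peak list was uniform in form. Every peak was 601 bp wide, the list held 324 multi-copy peaks, and 2 of these were among the 32, both in Lct. Over all 22225 protein-coding genes of the annotation, 8.79% had a peak within 30 kb of a start site, 2.09% had one within 1 kb, and 0.364% (81 genes) had 4 or more within 30 kb. The members' own counts of 6, 5 and 4 of 8 genes on these measures are read against those shares only as description, since the genes were chosen for them. All 32 assigned peaks had another peak of the list within 30 kb, against 596 of all 1639 (36.4%); the median distance between neighbouring peaks of the whole list was 498 kb.

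Among the disaccharidases, Sis, the sucrase-isomaltase that splits sucrose and the branch points of starch fragments, had 5 assigned peaks. The gene (ENSMUSG00000027790.8, chr3:72692479-72771785, - strand, 79.3 kb) has 48 exons. Counted from its first start site in the direction of transcription, the peaks lay at 1.42 kb in intron 2, 6.58 kb in intron 3, 7.36 kb in intron 4, 18.1 kb in coding exon 11 and 19.8 kb in intron 12. The run went on past the 30 kb limit. Further peaks lay at 34.8 kb in intron 21, at 75.4 kb in intron 45 and at 78.4 kb in intron 47. A final pair lay at 80.6 and 82.5 kb, which is 1.3 and 3.15 kb past the 3′ end of the gene. Peaks were thus found at both ends of Sis, with 40.7 kb between the midpoints of the peaks in intron 21 and intron 45. AAGGTCA was present in the peak at 7.36 kb and in the last peak past the end, and not in the other 8.

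Mgam, the maltase-glucoamylase that releases glucose from the ends of starch chains, had 7 assigned peaks. The gene (ENSMUSG00000068587.5, chr6:40578830-40719122, + strand, 140 kb) also has 48 exons, and its intron 1 of about 14 kb held 5 of the peaks. These lay at 4.66, 5.79, 7.32, 8.82 and 13.9 kb from the first start site. The peak at 13.9 kb was 60 bp upstream of the second annotated start site. The next peaks lay at 15.5 kb in intron 2 and 24.8 kb in intron 4. Beyond the limit, peaks followed at 50.4 kb in intron 24 and 99.6 kb in intron 32, and a pair lay at 141 and 144 kb, which is 0.348 and 3.99 kb past the 3′ end. AAGGTCA was present at 4.66, 5.79 and 15.5 kb and in the first peak past the end. In the peak at 15.5 kb its 3 occurrences, all on the - strand, started 191 and 138 bp apart.

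Slc5a1, which encodes the sodium-glucose cotransporter SGLT1 of the brush border, had the most assigned peaks of the 8 genes, at 12. The gene (ENSMUSG00000011034.3, chr5:33446868-33505521, + strand, 58.7 kb) has 15 exons and held all 12 between its ends. The first peak, at 0.333 kb, was centred on coding exon 1 and was the richest in G and C of the 32, at 60.9%. Intron 1 held peaks at 3.93, 10 and 12.3 kb. Intron 2 held peaks at 14.7, 17.4, 24.9 and 25.5 kb, and a peak at 27.4 kb had its midpoint on the first base of the second annotated start site, at the end of intron 2. The rest, assigned only through the second start site, lay at 44.7 kb in coding exon 10, 51.4 kb in intron 12 and 55.6 kb in intron 14. The peaks at 24.9 and 25.5 kb (chr5:33471433-33472033 and chr5:33472033-33472633) shared 1 base and were the only overlapping pair in the whole list. Another pair lay 3.07 and 4.56 kb past the 3′ end. AAGGTCA was present in only 1 of these 14 peaks, the one at 25.5 kb.

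**Figure D1:**
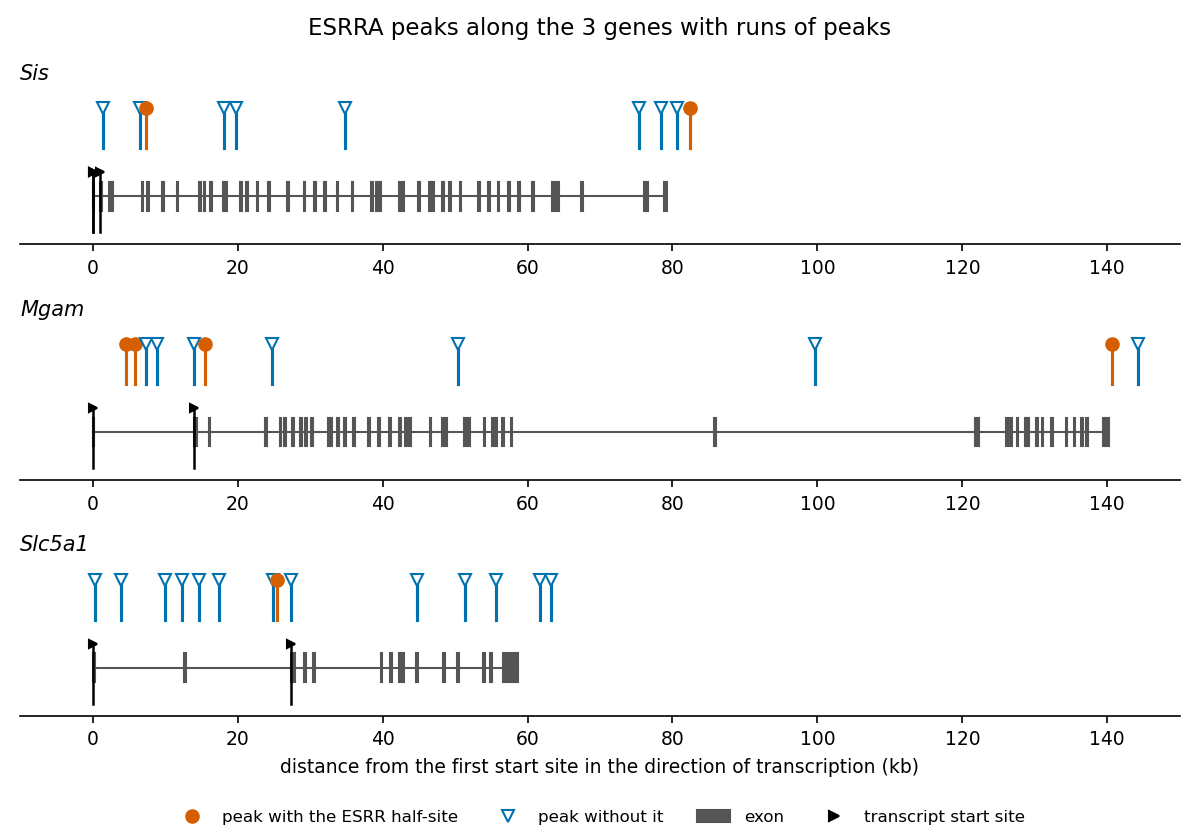
ESRRA peaks along Sis, Mgam and Slc5a1, drawn to 1 scale, with the distance from the first start site in the direction of transcription in kb on the horizontal axis. Grey boxes are exons, black flags are annotated start sites, filled circles are peaks with AAGGTCA and open triangles are peaks without it; of the 35 peaks, none lies upstream of the first start site and each gene ends with 2 peaks past its last exon.

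The layout of the peaks beyond the distance rule is shown in the map of the 3 genes. In each gene and the 30 kb to its sides there were 35 peaks together, 10 at Sis, 11 at Mgam and 14 at Slc5a1. None lay in the 30 kb upstream of the first start site, 29 lay between the ends of the gene and 6 lay past the 3′ end. When each gene was divided into 4 stretches of equal length, the stretches held 16, 7, 1 and 5 peaks in order from the start. These counts take every peak of the genes, also those beyond 30 kb of a start site. In order from the start, Sis had 5, 1, 0 and 2, Mgam had 7, 1, 1 and 0 and Slc5a1 had 4, 5, 0 and 3. Introns held 25 of the 29 peaks inside the genes. A peak within 5 kb past the 3′ end was found at 1.29% of all protein-coding genes, and Sis, Mgam and Slc5a1 each had 2. Lct, Treh, Slc2a2, Slc2a5 and Khk had none there. The 3 genes were singled out for their runs of peaks, so this is a description and was not tested.

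The spacing within the runs differed between the genes. Among assigned peaks the median distance between neighbouring midpoints was 3.45 kb at Sis, 1.56 kb at Mgam and 3.6 kb at Slc5a1. Over the whole gene there was 1 peak per 9.91 kb of Sis, per 15.6 kb of Mgam and per 4.89 kb of Slc5a1, so Mgam had the fewest per length of gene. The order of the spacings depended on the peaks taken: Mgam had the shortest median among assigned peaks and the longest, 4.38 kb against 2.94 kb at Sis and 3.6 kb at Slc5a1, over the gene and its sides. With peaks less than 1 kb apart joined the medians were 9.03 kb at Mgam, 5.56 kb at Sis and 3.89 kb at Slc5a1. These values come from 1 list and have no error. For comparison, the 17 peaks in and around St3gal4, a sialyltransferase gene, had a median spacing of 2.44 kb, and the 12 at the noncoding genes Malat1 and Neat1 had 2.62 kb. AAGGTCA was present in 2 of the 17 and in 3 of the 12 of those peaks.

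Most of the 24-base words in the long intervals without a peak were unique. The share of 24-base words found once in the genome was 76.1% in the 40.1 kb interval of Sis and 92.1% in the 16.7 kb interval of Slc5a1. In the intervals of Mgam it was 91.4%, 70.1% and 85.7%, beside 82.1% over the whole gene. Whether reads could be placed there was not measured directly.

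Few protein-coding genes had as many peaks between their ends as these. A peak inside the gene was found at 3.41% of the 22225 genes, and at 5 of the 8 members: Sis, Mgam, Lct, Slc5a1 and Slc2a2. By the number of such peaks St3gal4 came first with 14, followed by Slc5a1 with 12, Mgam with 9 and Sis with 8, then Atp1b1 and Gm20388 with 6 each. Lct, with 4, was 1 of 16 genes with 4 or more. Within 30 kb of a start site, 13 genes had 12 peaks or more, Slc5a1 included when both its annotated start sites are used. There were 17 with 7 or more, Mgam included, and 40 with 5 or more, Sis included. A peak was counted for every gene within reach, so these genes are not as many separate runs. The highest count, 21 peaks, was reached by 7 genes. The only run of the list with that many peaks lay near the start of chromosome 9. Its peaks were almost all multi-copy, with median copies from 8 to 49. Long genes offer more room for a peak inside them, and these orders were not adjusted for length.

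**Figure D2:**
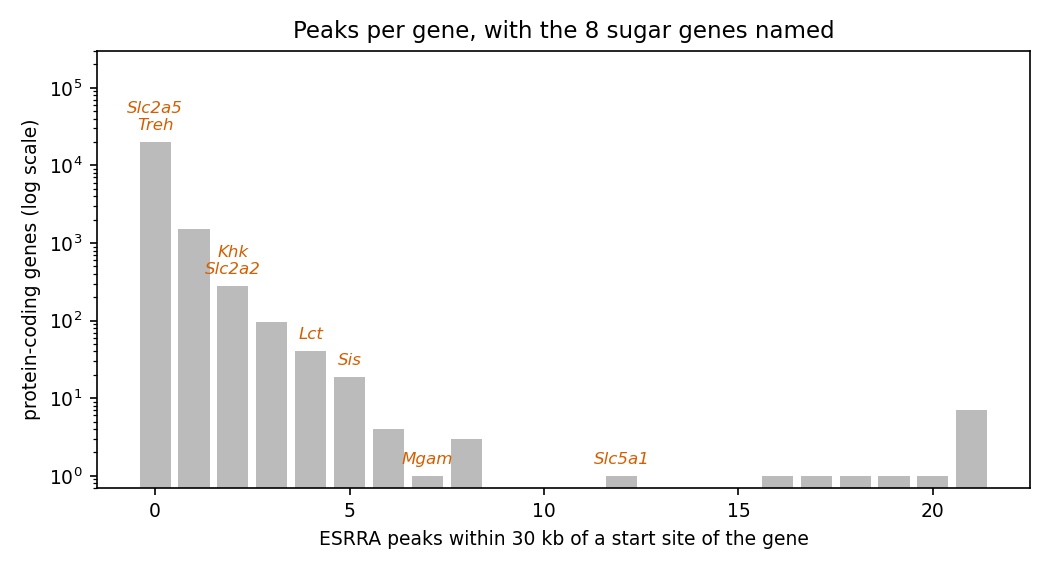
Number of protein-coding genes (vertical axis, log scale) by how many ESRRA peaks lay within 30 kb of a start site (horizontal axis), with the 8 sugar genes named above their bars. Of the 22225 genes, 20271 had none, among them Treh and Slc2a5. Sis had 5, Mgam 7 and Slc5a1 12, and 12 other genes had 16 to 21. A peak is counted for every gene within reach, multi-copy peaks included, so these 12 genes are not 12 separate runs.

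Lct encodes lactase, the enzyme for milk sugar. The gene (ENSMUSG00000026354.8, chr1:130181333-130224895, - strand, 43.6 kb) had 4 peaks, at 3.91 kb in intron 1, 11.3 and 12.2 kb in intron 2 and 16.8 kb in coding exon 4. None was within 1 kb of a start site. The peak at 3.91 kb held TCAAGGTCA, 53 bp from its midpoint. The pair in intron 2 was of another kind, since both peaks lay in a tandem repeat of 2.09 kb (chr1:130212305-130214392). One 24-base word of this repeat occurred 42 times, all of them here and nowhere else on the 21 chromosomes. Its copies were spaced by 50 bases 23 times, by 51 bases 16 times and by 49 bases 2 times. The first copy of the unit is shown because 2 of the 4 Lct peaks rest on it.
Lct repeat unit, intron 2, chr1:130212305-130212354, - strand: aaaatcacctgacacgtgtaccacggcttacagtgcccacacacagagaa

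The median 24-base word of these 2 peaks had 39 and 38 copies in the genome, and 0% and 8.3% of their words were found once. The unit held no AAGGTCA. Whether the paired reads could be placed on 1 copy was not measured, so the counts for Lct are also given without these peaks: 2 remained, 1 with AAGGTCA. What part the repeat had in the calling of these peaks was not tested.

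Treh, the trehalase that splits the disaccharide trehalose, had no peak. The gene (ENSMUSG00000032098.7, chr9:44481316-44494388, + strand, 13.1 kb) had its nearest peak 237 kb from an annotated start site inside the gene. Of its 24-base words, 92.4% were found once in the genome, beside 85.3% in Sis and 90.1% in Slc5a1. AAGGTCA occurred 12 times within 30 kb of its start sites, none of them in a peak and none within 1 kb.

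Slc2a2 encodes GLUT2, the facilitative transporter through which hexoses leave the enterocyte. The gene (ENSMUSG00000027690.7, chr3:28596825-28627278, + strand, 30.5 kb, 11 exons) had 2 peaks, 2.06 kb upstream of the first start site and 0.422 kb downstream of it in intron 1. Both thus lay close to the start, and nothing was called along the rest of the gene. The downstream peak held AAGGTCA, 124 bp from its midpoint. The upstream peak was the only 1 of the 32 outside every annotated gene.

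Slc2a5 encodes GLUT5, the fructose transporter of the brush border, and had no peak. The gene (ENSMUSG00000028976.4, chr4:149493392-149518278, + strand, 24.9 kb) had its nearest peak 97 kb from an annotated start site inside the gene. AAGGTCA occurred 3 times within 1 kb of its annotated start sites, and 16 times within 30 kb. Only the first of these start sites belongs to a protein-coding transcript, and the others lie 9.66 to 20.3 kb inside the gene. Per length of the windows around all annotated start sites, AAGGTCA came to 4.84 per 10 kb within 1 kb. At Slc2a2 it came to 4.86 per 10 kb, from 2 occurrences.

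Khk encodes ketohexokinase, which phosphorylates fructose after its uptake. The gene (ENSMUSG00000029162.9, chr5:31223929-31233619, + strand, 9.69 kb) had 2 peaks and none between its ends. The nearer lay 0.333 kb upstream of its first start site, at the 3′ end of the neighbouring gene Emilin1, and held AAGGTCA 91 bp from its midpoint. The other lay 23 kb downstream of the first start site and 13.9 kb from the nearest one. It was much closer, at 0.964 kb, to the start site of Cgref1, inside which it lay, so its assignment to Khk rests on distance alone. It held AAGGTCA 37 bp from its midpoint.

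**Figure D3:**
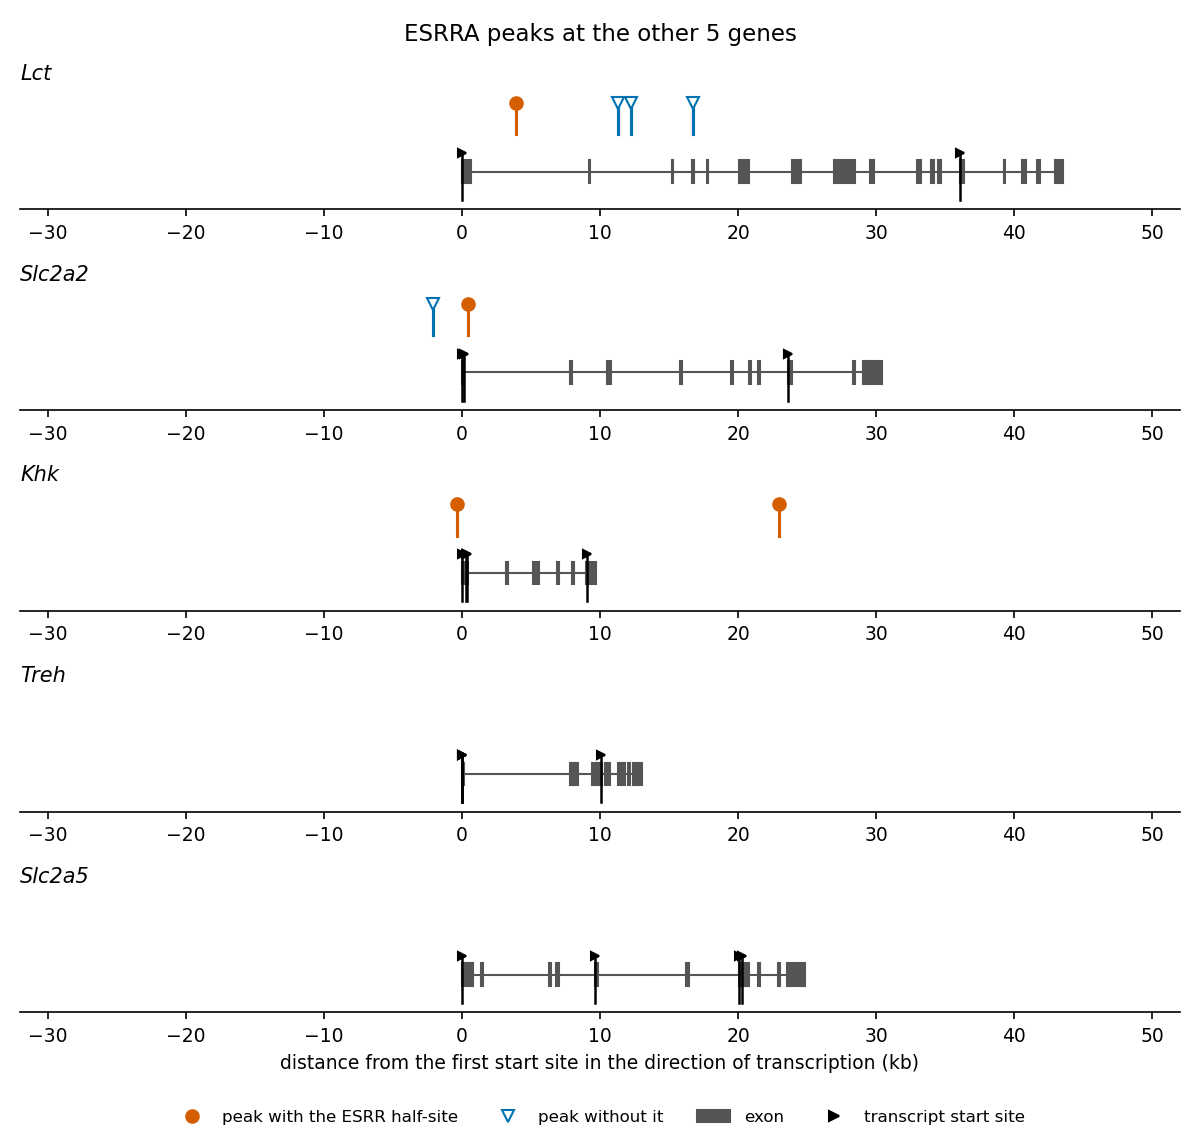
ESRRA peaks within 30 kb of the start sites of Lct, Slc2a2, Khk, Treh and Slc2a5, with the distance from the first start site in the direction of transcription in kb on the horizontal axis and the symbols of the map of Sis, Mgam and Slc5a1. Lct has 4 peaks inside the gene, Slc2a2 and Khk have a peak within 1 kb of the first start site, and Treh and Slc2a5 have none.

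Start sites themselves were marked at 5 of the 8 genes, counting a midpoint within 1 kb: Sis, Mgam, Slc5a1, Slc2a2 and Khk, with 2 such peaks at Slc5a1. This count depended on which transcripts were trusted. The start sites next to the Sis and Mgam peaks, and the second start site of Slc5a1, belong to transcript models that begin with a coding base and may be incomplete at their 5′ ends. Without such models, an alternative chosen after seeing the data, 3 genes kept a peak within 1 kb (Slc5a1, Slc2a2 and Khk) and 29 peaks were assigned. The peaks no longer assigned were those of Slc5a1 at 44.7, 51.4 and 55.6 kb from its first start site. From the first start site the nearest peaks of Sis and Mgam were 1.42 and 4.66 kb away. The 30 kb limit itself cut through the Sis, Mgam and Slc5a1 runs. The outermost assigned peak was that of Slc5a1 at 28.2 kb from its nearest start site, and the closest peaks outside were those of Sis at 33.8 kb, Slc5a1 at 34.3 and 35.8 kb and Mgam at 36.4 kb.

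The central 61 bases of peaks at a start site without AAGGTCA are shown for Slc5a1 and Mgam, chosen after their values were seen, so that they can be read beside the sequences above. Each is on the + strand, and neither whole peak held even AGGTCA.
Slc5a1, coding exon 1, chr5:33447171-33447231, + strand: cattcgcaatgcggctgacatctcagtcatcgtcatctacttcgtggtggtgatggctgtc
Mgam, intron 1 before the second start site, chr6:40592739-40592799, + strand: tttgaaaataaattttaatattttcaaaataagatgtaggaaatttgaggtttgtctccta

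Of the 32 assigned peaks, 29 (90.6%, 95% Wilson interval 75.8 to 96.8) had their midpoint between the ends of 1 of the 8 genes, and 24 of these 29 (82.8%) were in its introns. The midpoints of the other 5 (17.2%, 7.6 to 34.5) were in its exons, which made up 7.7% of the bases of the genes with a peak. Of these 5, the Slc5a1 peak at 27.4 kb was in an exon only by the transcript model of the second start site, which may be incomplete. Classed by any annotated gene, 25 of the 32 were in introns (78.1%, 61.2 to 89), against 45.9% (42.9 to 48.8) of the 1097 other single-copy peaks that met the same distance rule for any protein-coding gene, and 1 of the 32 was intergenic, against 31.1%. These intervals cover counting error only. Assignment by distance to the start sites of long genes in part sets where a peak can lie, peaks of 1 run are not independent of each other, the runs were part of why the genes were chosen, and the difference was not tested.

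By their median the members' peaks were poorer in G and C than the other single-copy peaks, as were the 2 runs taken for comparison. The median GC content of the members' peaks was 43.2%, with a range from 30.3% to 60.9%, against a median of 50.6% in the other single-copy peaks. It was 42.1% in the 17 peaks in and around St3gal4 and 48.4% in the 12 at Malat1 and Neat1. By gene, the median was 35.4% in Sis, 39.8% in Mgam, 45.6% in Slc5a1 and 49.4% in Lct. All 5 Sis peaks lay between 30.3% and 40.4%, below the median of the members.

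The core AAGGTCA was searched on both strands as an exact match. It was present in 9 of the 32 peaks (28.1%, 15.6 to 45.4), against 44.3% (41.9 to 46.7) of all 1607 other peaks and 51.9% (49.2 to 54.6) of the other single-copy peaks. Without the 2 repeat peaks of Lct the share was 9 of 30 (30%, 16.7 to 47.9). In windows of the same width 2 kb to each side of the members' peaks it was 6 of 47 (12.8%, 5.98 to 25.2), beside 12.6% of windows next to the other peaks. In windows 10 kb away it was 2 of 55 (3.64%, 1 to 12.3). The share in the peaks thus lay between that of neighbouring sequence and that of the rest of the list. Its interval overlapped those of the windows 2 kb away and of all other peaks, and not those of the windows 10 kb away and of the other single-copy peaks. The difference was not tested, since peaks of 1 run are not independent. GC content also differed between the members' peaks and the other single-copy peaks, and what part it had was not tested. The 2 runs taken for comparison also had low shares of AAGGTCA. It was present in 2 of 17 peaks (11.8%) in and around St3gal4 and in 3 of 12 (25%) at Malat1 and Neat1.

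**Figure D4:**
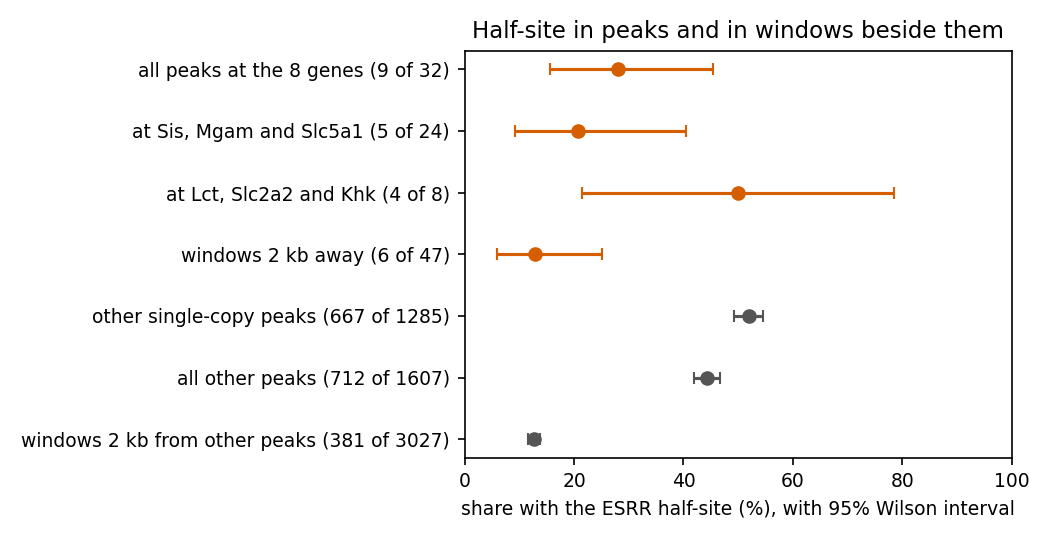
Share of peaks or windows that hold AAGGTCA on either strand (horizontal axis, %), with 95% Wilson intervals for counting error. The orange points are the sugar genes' peaks and the windows beside them, the grey points the rest of the list; the share is 28.1% in the 32 peaks and 51.9% in the other single-copy peaks.

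The members were not alike in this. AAGGTCA was present in 1 of 5 Sis peaks, 3 of 7 Mgam peaks, 1 of 4 Lct peaks, 1 of 12 Slc5a1 peaks, 1 of 2 Slc2a2 peaks and both Khk peaks. The genes with runs, Sis, Mgam and Slc5a1, together had 5 of 24 (20.8%, 9.24 to 40.5), and Lct, Slc2a2 and Khk had 4 of 8 (50%, 21.5 to 78.5), with overlapping intervals. Slc5a1 weighed most in the total. Left out, it gave 8 of 20 (40%, 21.9 to 61.3), an interval that includes the 51.9% of the other single-copy peaks. Without Sis the share was 8 of 27 (29.6%, 15.9 to 48.5) and without Mgam 6 of 25 (24%, 11.5 to 43.4). Neither of these intervals includes 51.9%. Peaks of 1 run are not independent, and the differences were not tested.

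The position of the core within the peak also varied. Its distance from the midpoint ran from 16 to 250 bp, and 2 of the 11 occurrences (18.2%) lay within 50 bp and 4 (36.4%) within 100 bp. Among 985 occurrences in the other single-copy peaks 36% lay within 50 bp and 59.3% within 100 bp. The closest was the middle occurrence of the Mgam intron 2 peak, and the farthest was that of the Sis intron 4 peak. In the stretch from 100 bases before to 100 bases after the midpoint, AAGGTCA was present in 4 of 32 peaks (12.5%, 4.97 to 28.1), against 35.7% of the other single-copy peaks.

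**Figure D5:**
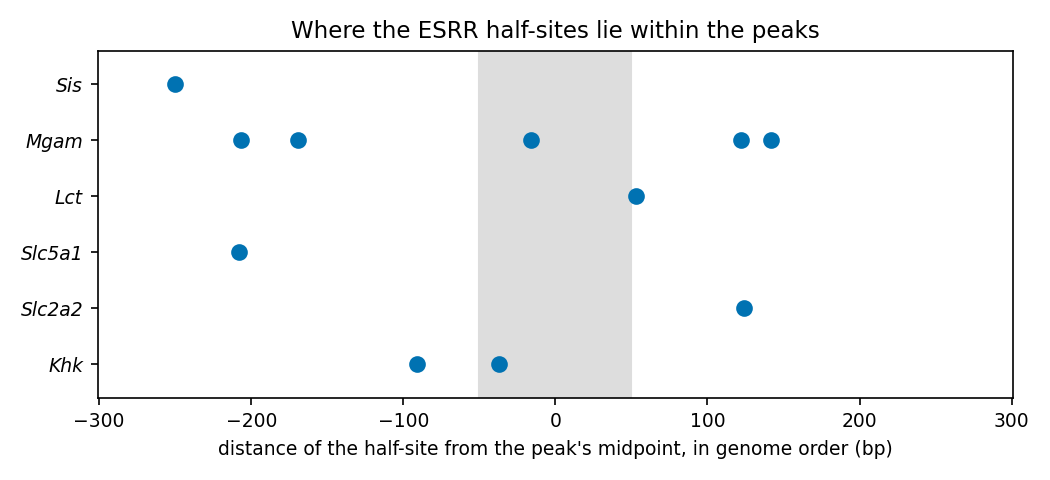
Distance of each of the 11 AAGGTCA occurrences from the midpoint of its peak in bp (horizontal axis, in genome order), by gene; the grey band marks 50 bp to each side. Only 1 Mgam and 1 Khk occurrence lie in the band, and the Lct occurrence lies just outside it at 53 bp.

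The core was also counted around the start sites of members with and without peaks. AAGGTCA occurred within 1 kb of a start site at 44% of all protein-coding genes and at 4 of the 8 members: once at Lct, 2 times at Slc2a2, 3 times at Slc2a5 and once at Khk. Of these, 1 occurrence at Slc2a2 and the Khk occurrence lay in a peak. Within 30 kb of the start sites Mgam had 18 occurrences with 5 in peaks, Lct had 22 with 1, Slc5a1 had 12 with 1, Slc2a2 had 11 with 1, Khk had 9 with 2 and Sis had 5 with 1. Sis thus had the fewest of the 8 genes, at 0.82 per 10 kb of the window, and Mgam had the most per length of window, at 2.43 per 10 kb.

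Other short sequences were searched in the same way, as exact matches on both strands. The longer forms TCAAGGTCA and TNAAGGTCA both contain AAGGTCA, which in turn contains AGGTCA, so these counts overlap. TCAAGGTCA was found in 1 of 32 peaks (3.12%), against 18.1% of the other single-copy peaks. TNAAGGTCA was found in 12.5% against 25.6%, and AGGTCA, the half-site shared by many nuclear receptors, in 17 of 32 (53.1%) against 70.2%.

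Sequences other than AAGGTCA and its longer and shorter forms gave mixed counts. GTTAAT was found in 12 of 32 peaks (37.5%, 22.9 to 54.7), against 16% (14.1 to 18.1) of the other single-copy peaks, 25.5% (15.3 to 39.5) of the windows 2 kb from the members' peaks and 27.3% (17.3 to 40.2) of those 10 kb away. It was present in 4 of 7 Mgam peaks, 2 of 5 Sis peaks, 1 of 4 Lct peaks, 2 of 12 Slc5a1 peaks, 1 of 2 Slc2a2 peaks and both Khk peaks. The GATA sequence AGATAA was found in 11 of 32 (34.4%), against 27.9% of the other single-copy peaks and 34% of the windows beside the members' peaks, and 4 of the 5 Sis peaks had it. The CDX sequence TTTATGG was found in 3 peaks (9.38% against 7.78%), all at Slc5a1. The AP-1 sequence TGANTCA was found in 4 (12.5% against 20.2%), and the HNF4 sequence CAAAGTCCA in 0 of 32 against 3.04%. GTTAAT and AGATAA are rich in A and T, as the members' peaks are, and what part base composition had in their shares was not tested. A match is only a run of letters and does not show that a factor was bound.

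Several peaks could be counted for a neighbour of a member. Tas2r138, a bitter taste receptor gene whose start site lay 20.2 kb from the closest of them, shared 5 of the Mgam peaks. The peaks of Khk lay within 30 kb of start sites of other protein-coding genes: Emilin1 and Cgref1 shared both, and Agbl5, Ost4, Preb and Tcf23 shared 1 each. Slc5a1 shared its peaks only with pseudogenes. Sis, Lct and Slc2a2 shared none of their assigned peaks with another annotated gene, so for these genes, for Slc5a1 and for the other 2 Mgam peaks the member was the only protein-coding gene within this distance.

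Other genes of sugar handling were taken from a list of 43. A peak within 30 kb of a start site was found at 15 (34.9%), within 1 kb at 5, and these 15 genes had 24 different peaks between them. No gene of the list had more than 4 peaks within 30 kb. By this count only Txnip and Hnf4a equalled Lct, and none reached Sis, Mgam or Slc5a1. The list was drawn up with results of these data known, and its share is given beside the 8.79% of all protein-coding genes without a test.

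Transport and digestion genes of the list were mostly without peaks. Of 10 SLC2 transporter genes only Slc2a4, the insulin-responsive GLUT4, had a peak, at 18 kb upstream, and of 6 SLC5 sugar transporter genes Slc5a4a and Slc5a4b had 1 that they shared, at 20.4 and 16.1 kb upstream. None of 4 genes for amylases and acid α-glucosidase had a peak.

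Enzymes of sugar use had peaks at 2 of 5 genes for galactose and 2 of 5 for glucose release. Among the genes for fructose use, Glyctk, a glycerate kinase, had 1 at 13.5 kb upstream. Galt, the uridylyltransferase of galactose use, had a peak inside the gene, 0.128 kb upstream of a start site that is not its first. Galk1, the galactokinase, had 1 at 7.03 kb, past the 3′ end of the gene. Pck1, the gluconeogenic phosphoenolpyruvate carboxykinase, had peaks at 0.381 and 6.76 kb, both with AAGGTCA, the latter past the 3′ end of the gene. G6pc, the glucose 6-phosphatase, had 1 peak with AAGGTCA at 4.78 kb upstream. Within 1 kb of a start site, the galactose genes and the glucose release genes thus each had 1 gene with a peak, and the SLC2 and SLC5 genes of the list had none.

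Genes for sugar sensing and for factors that act on the sucrase-isomaltase promoter had peaks at 6 of 9. Txnip, which is induced by glucose, had 4 peaks, at 0.603, 14.3, 15.6 and 17.2 kb from the nearest start site of each. The last 3 held AAGGTCA and lay past the 3′ end of the gene. Hnf4a, an enterocyte nuclear receptor, also had 4, at 9.21, 8.28 and 7.42 kb upstream and 25 kb downstream of a start site. Those upstream lay between the ends of Hnf4a, before a start site inside the gene, and the other lay past its 3′ end. Mlxipl, which encodes the carbohydrate response factor ChREBP, had peaks at 1.42 and 10.1 kb, and Tas1r2, a subunit of the sweet taste receptor, had 2 upstream, at 24.5 and 2.77 kb. Gata4 had a peak with AAGGTCA inside the gene, 0.381 kb upstream of a start site that is not its first. Cdx2 had 1 at 12.8 kb, past the 3′ end of the gene. Tas1r3 and Cdx1 had none.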

How the data were processed

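ESRRA ChIP-seq was made from 2 ChIP libraries and 1 input library of duodenal villus cells. Per the study's methods and processing notes, the authors aligned reads to mm9 with Bowtie2 2.2.6, merged both ChIP libraries with SAMtools 0.1.19 and called peaks with MACS2 at a p-value of 1e-05. FastQC 0.11.3 and deepTools 2.4.2 are also named there. The deposited values were positions in base pairs: a chromosome, a start and an end in 3 columns, with 0 columns of other samples. How the peaks came to be 601 bp wide is not given in the sources used here. A call on merged libraries hides differences between them, and a weak peak counts like a strong one.

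Midpoints were measured against GENCODE M1 start sites on NCBI build 37, which is mm9, with Python 3.11.15, pysam 0.24.0 and numpy 2.4.6. Peaks were classed by their midpoint, and introns and exons were numbered on the longest transcript. Copies of 24-base words were counted on both strands of 21 chromosomes with numba 0.67.0, and a median over 10 marked a multi-copy peak. Windows beside peaks were 601 bp wide, 2 kb away and free of other peaks. Intervals are 95% Wilson intervals for counting error. Distance, annotation, joining and motif functions were tested on simulated data. Genes named were the 8 members, genes of the list of 43 with a peak (some results of this list are not reported here), protein-coding genes within 30 kb of the members' peaks, and St3gal4, Malat1 and Neat1; the other genes with many peaks were named after their counts were seen. The members, lists and motifs were chosen with earlier results of these data known. The alternatives were other distances, start site sets, peak sets, motifs and windows.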

Additional observations from a re-analysis of the deposited data

How the results depend on the processing

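Of 69 alternative values, 57 stayed within 1.5 times the value given (counts and spacings) or within its 95% interval (shares), and 12 did not. Within 10 kb 19 peaks were assigned, and without transcript models that begin with a coding base, an alternative chosen after seeing the data, 3 genes had a peak within 1 kb. The share of peaks with the core was 3.12% for TCAAGGTCA, 12.5% for TNAAGGTCA, 53.1% for AGGTCA and 12.5% within 100 bases of the midpoint, and 3.64% in windows 10 kb away. The median spacing was 5.56 kb at Sis and 9.03 kb at Mgam with peaks less than 1 kb apart joined, and 4.38 kb at Mgam over the whole gene and its sides. TTTATGG fell to 0% without Slc5a1 and TGANTCA to 4% without Mgam. Leaving out the multi-copy peaks, also chosen after seeing the data for the shares, gave 30% for AAGGTCA and 90% for peaks inside the genes. Within 100 kb 7 of the 8 genes had a peak, and within 10 kb 6 had a peak. The gene added at 100 kb was Slc2a5, and only through start sites of noncoding transcripts inside the gene. The shares of all protein-coding genes at these distances were not computed.

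No paired analysis was possible because the peaks came from merged reads of the 2 ChIP libraries, with no value for either. A stricter peak threshold and leaving out a replicate were not run, since no score per peak and no peaks per library were analysed here. Depth per library and strength per peak therefore set no weight on any value given here.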
